A study of Rattus norvegicus with 2 samples.

Results

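Fibrillar collagens are the rod-shaped proteins that give connective tissue its tensile strength. Here 5 collagen chain genes (Col1a1, Col1a2, Col3a1, Col5a1 and Col5a2) and 5 genes for proteins that fold, modify, trim or cross-link the chains (Serpinh1, Lox, Loxl2, Plod2 and Pcolce) were followed in rat prostate cancer cells. The members were chosen by gene name, with their measured ratios between the arrays already known, so their ratios are described and not tested. They comprise 17 probe sets annotated to exactly 1 of these genes, and 10 genes of the 14217 that the array names through such probe sets.

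The cells were AT6.1, a metastatic rat prostate carcinoma line. RNA was profiled on 2 arrays, 1 from clone 7, transfected with the expression vector pcDNA3 carrying Ndrg-1 (N-myc downstream regulated gene-1), and 1 from clone 9, transfected with the same vector and no insert. Both clones grew in RPMI 1640 with 10% FCS and 0.3 mg/mL of G418, the drug that selects for the vector. The series set out to find expression differences that go with raised Ndrg-1. Each group is 1 clone, 1 culture and 1 array, so the effect of the insert cannot be told apart from differences between clones, cultures or arrays, and no p-value is given.

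Each collagen chain is made in the endoplasmic reticulum as a procollagen whose long central part carries glycine at regular intervals. Prolyl and lysyl hydroxylases modify it, and 3 chains wind into a triple helix held by the chaperone HSP47, the product of Serpinh1. After secretion, proteases helped by the enhancer protein from Pcolce remove the end propeptides, and lysyl oxidases cross-link the trimmed molecules within fibrils. Type I collagen is built from Col1a1 and Col1a2 chains, type III from Col3a1 chains alone, and type V, which sets fibril diameter, from Col5a1 and Col5a2 chains.

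The promoter sequences of genes on the modification and folding steps show what surrounds the starts of genes whose signals are given below. RefSeq's promoter table for the rat assembly GRCr8 held 6 of the 10 members. Plod2 encodes a lysyl hydroxylase known as a target of the hypoxia-inducible factors, and P4ha1, not a member, encodes a prolyl hydroxylase subunit known as another. Serpinh1 is known to be induced by heat shock factor. The 250 bases before each start are printed 5′ to 3′ on the gene's own strand. Capitals mark ACGTG or GCGTG on either strand in Plod2 and P4ha1, the core letters of hypoxia response elements. In Serpinh1 they mark TTCNNGAA and GAANNTTC, the paired units of heat shock elements, which overlap there.
Plod2 (chr8:101964068-101964317, plus strand): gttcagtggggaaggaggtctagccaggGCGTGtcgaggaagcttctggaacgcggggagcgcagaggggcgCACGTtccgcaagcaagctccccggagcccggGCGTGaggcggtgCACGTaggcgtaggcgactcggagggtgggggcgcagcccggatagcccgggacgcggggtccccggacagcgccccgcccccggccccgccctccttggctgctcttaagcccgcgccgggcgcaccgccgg
P4ha1 (chr20:27844796-27845045, plus strand): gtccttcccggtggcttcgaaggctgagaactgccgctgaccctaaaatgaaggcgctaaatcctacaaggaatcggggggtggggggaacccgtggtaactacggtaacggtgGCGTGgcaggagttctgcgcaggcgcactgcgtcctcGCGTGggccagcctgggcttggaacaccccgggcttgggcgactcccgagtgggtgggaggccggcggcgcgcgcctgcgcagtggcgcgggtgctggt
Serpinh1 (chr1:163062977-163063226, minus strand): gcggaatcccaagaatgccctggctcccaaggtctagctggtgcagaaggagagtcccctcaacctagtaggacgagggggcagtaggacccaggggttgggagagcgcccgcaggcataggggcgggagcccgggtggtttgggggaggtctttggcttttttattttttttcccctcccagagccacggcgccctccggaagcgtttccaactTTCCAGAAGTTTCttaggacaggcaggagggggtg

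The Plod2 window held 4 hypoxia core matches, the farthest beginning 222 bases and the nearest 133 bases before the start, and the P4ha1 window held 2. The windows of P4ha2 and Creb3l1, also not members, held 5 and 2. Such a match occurred in 36.7% of the 33469 windows of that length in the table, so it is common. Among the 6 members with a window, Plod2 and Pcolce held the core and Col1a2, Col5a1, Col5a2 and Serpinh1 did not. A heat shock pair occurred in 13.5% of all windows and in those of Serpinh1, Plod2 and Col5a1. In Serpinh1 the first of its 2 overlapping pairs began 35 bases before the start. These matches describe letters only and show no binding.

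Values are deposited probe set signals on a linear scale. Ratios were taken on the log2 scale, Ndrg-1 minus vector, after a small rescaling of the vector array. They are relative to the median ratio of the brighter probe sets (mean signal above the median). The floor was the median signal, 31.0. A signal under it was raised to it, and probe sets under it in both arrays were not compared. Where only 1 array was under it, the ratio is a bound. Of the 9182 genes above the floor in at least 1 array, 149 (1.62%) passed 2-fold upward in the Ndrg-1 array and 138 (1.5%) downward, together 3.13%. The only error available is how far probe sets of the same gene disagree within these arrays. Its SD on the log2 ratio was 0.23 over 5336 probe sets of 2296 genes. Among dim probe sets the SD was 0.30, over 1033 probe sets of 471 genes. Among bright ones (mean signal from 357) it was 0.13, over 887 probe sets of 401 genes. The values for dim and bright compare only probe sets of a gene that lie in the same signal range. This error leaves out all variation between cultures and clones.

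Among the members, Col1a1 and Plod2 passed 2-fold upward, Col3a1 passed it downward, and the other 6 measured members differed by less. Because the choice of members used these ratios, nothing is read from setting 2 of 9 and 1 of 9 against the background above. In RNA from whole cultures, fewer cells making a transcript and less of it per cell cannot be told apart. Of the 17 member probe sets, 14 lay above the floor in both arrays and 3 under it in both, which left Lox without a comparison.

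**Figure D1:**
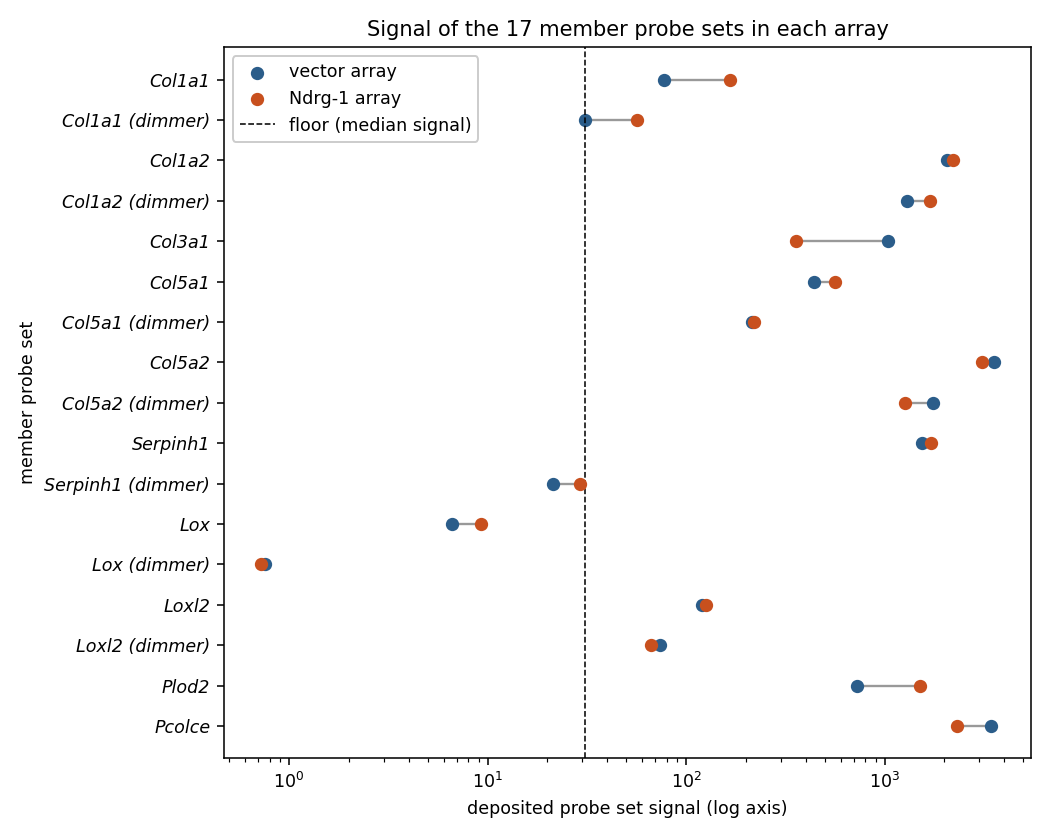
Deposited signal (log axis) of the 17 member probe sets in the Ndrg-1 array (orange) and the vector array (blue), with the floor as a dashed line; a second, dimmer probe set of a gene is named so. The points stand farthest apart for Col3a1, and the 2 Lox probe sets and the dimmer Serpinh1 probe set lie left of the floor.

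Col1a1, the alpha-1 chain of type I collagen, read 167 with Ndrg-1 and 76.9 with the empty vector, 2.16-fold higher. Its dimmer probe set went the same way, at 56.4 against 31.0, a log2 ratio of 0.86, with the vector signal directly at the floor. The log2 ratio of the brighter probe set was 1.11, and 1.27% of measured genes stood at least as high. Both Col1a1 probe sets were among the dimmer ones, in signal ranges where ratios scatter most. For probe sets of similar signal (the fourth decile from the dimmest), the central 90% of log2 ratios ran from -0.59 to 0.73, and Col1a1 lay above it. Col1a1 was at least 2-fold higher in 6 of the 9 alternatives that measured it, and stood at 0.90 with scaling to the poly-A spikes, 0.97 with a pseudocount of 16 and 0.98 with the median over probe sets. It was under the floor when that was set at the 75th percentile.

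Col1a2, the partner chain of Col1a1 in type I collagen, was at 2197 against 2061, a log2 ratio of 0.09. Its dimmer probe set gave 1689 against 1303, a log2 ratio of 0.37. Both stood less than 2-fold higher in the Ndrg-1 array, except that the brighter turned to -0.13 when the arrays were scaled to the poly-A spikes. The dimmer exceeded the 0.27 that is 2 SD among bright probe sets, and the brighter did not. Neither exceeded the 0.46 that is 2 SD over all signals. The brighter probe sets of the type I chains therefore differed from each other by 1.03 in log2 ratio, a 2.04-fold shift of Col1a1 relative to Col1a2. With the dimmer probe sets, at 0.86 for Col1a1 and 0.37 for Col1a2, the gap was 0.49. Over all signals, 2 SD of a difference between probe sets is 0.65, so the gap exceeded it on the brighter probe sets and not on the dimmer ones.

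Col3a1, the only chain of type III collagen, read 356 with Ndrg-1 and 1038 with the empty vector, 2.93-fold lower. Its log2 ratio of -1.55 was the 38th lowest of the 9182, and 0.41% of measured genes stood as low. Col3a1 has a single probe set here, so no second one could be set beside it. Its signal lies in the ninth decile, where the central 90% of log2 ratios ran from -0.45 to 0.41. It stayed at least 2-fold lower under each of the 10 alternative settings, between -1.76 and -1.01.

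Col1a1 and Col3a1 stood apart by 2.66 in log2 ratio, so the ratio of Col1a1 to Col3a1 signal shifted 6.34-fold toward Col1a1 with Ndrg-1. A difference between members does not depend on how an array as a whole is scaled. It lay between 2.48 and 2.66 in the 9 alternatives that measured both genes. The members were picked with this contrast known, and it is given as a description.

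Col5a1 and Col5a2 encode chains of type V collagen, which lies inside type I fibrils. Col5a1 gave 564 against 439 on its brighter probe set, a log2 ratio of 0.36, and 219 against 215 on its dimmer one, a log2 ratio of 0.02. Col5a2 gave 3081 against 3570, a log2 ratio of -0.22, and 1264 against 1748 on the dimmer probe set, a log2 ratio of -0.47. Neither reached 2-fold on any probe set. The brighter Col5a1 probe set exceeded the 0.27 that is 2 SD among bright probe sets, and its dimmer one did not. Of the Col5a2 probe sets the dimmer exceeded 0.27 in size and the brighter did not. The brighter Col5a2 probe set turned to 0.06 with quantile normalization, 0.04 with the lowess trend removed and 0.33 with scaling to the hybridisation spikes. It lies in the brightest decile of signals, whose median log2 ratio was -0.13. The type V chains differed from each other by 0.58, above the 0.38 that is 2 SD of a difference at their signal and below the 0.65 over all signals.

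Serpinh1 read 1716 with Ndrg-1 and 1533 with the empty vector, a log2 ratio of 0.16, or -0.06 with scaling to the poly-A spikes. Its other probe set, at 29.2 and 21.3, was under the floor in both arrays, and the brighter, an _s_at probe set, is the only one that can be compared. HSP47 binds only procollagens, and its transcript differed by less than 2 SD of the disagreement between probe sets. The promoter printed above, with its heat shock pairs, belongs to this gene.

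Plod2, the lysyl hydroxylase that modifies the telopeptides at the ends of collagen molecules, gave 1509 against 724, 2.08-fold higher. Its log2 ratio of 1.05 was exceeded or equalled by 1.45% of measured genes. It has a single probe set, in the brightest decile, where 90% of log2 ratios lay between -0.48 and 0.26. Plod2 was at least 2-fold higher in 9 of the 10 alternatives and stood at 0.84 with scaling to the poly-A spikes. The first promoter printed above, with hypoxia core matches and heat shock pairs, is that of Plod2. A link between these matches and the Plod2 ratio was not tested.

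Pcolce, whose product enhances removal of the C-terminal propeptide, gave 2318 against 3449, a log2 ratio of -0.58 (1.49-fold lower). It did not reach 2-fold, but 5.30% of measured genes stood as low, and it lay under the central 90% of its signal decile. Removing the lowess trend moved it to -0.36, and scaling to the hybridisation spikes to -0.03. Its signal was among the highest on the array, in the range where ratios bend below 0.

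Lox and Loxl2 encode lysyl oxidases, which start cross-linking by oxidising lysines. The Lox probe sets gave 9.30 against 6.63 and 0.718 against 0.760, both under the floor, so Lox could not be compared. Loxl2 gave 125 against 120, a log2 ratio of 0.06, and 66.2 against 74.2 on its dimmer probe set, a log2 ratio of -0.17. The probe sets pointed in opposite directions, by less than 2 SD, and the brighter one turned to -0.15 with scaling to the poly-A spikes. The median over both was -0.05.

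**Figure D2:**
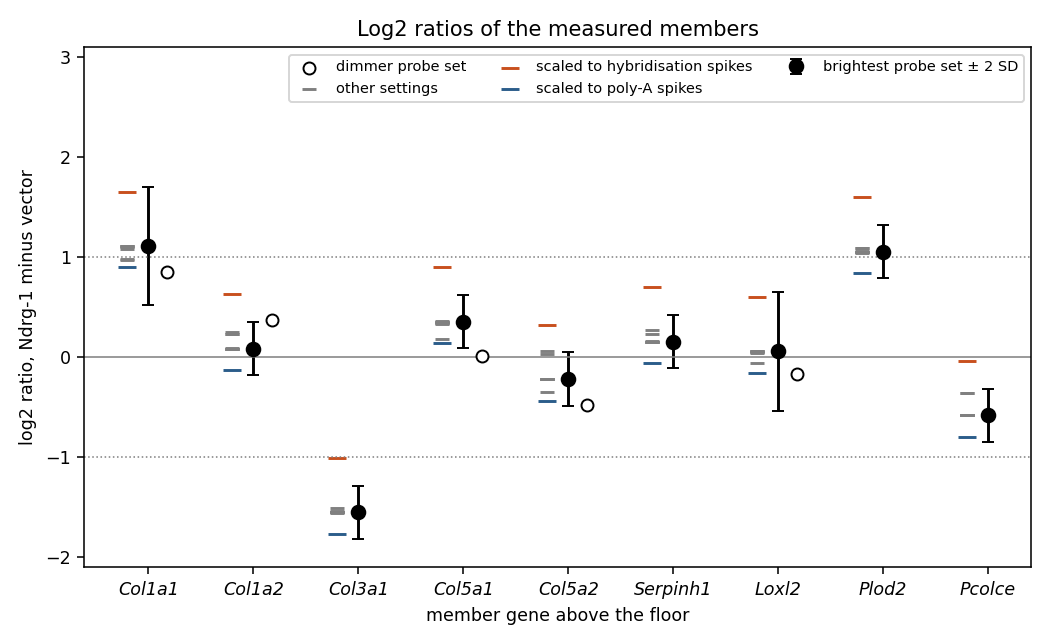
Log2 ratio (Ndrg-1 minus vector) of the 9 measured members. Filled points are each gene's brightest probe set, with bars of 2 SD of that disagreement at like signal, open points are dimmer probe sets and dashes are alternative settings. Col1a1 at 1.11 and Plod2 at 1.05 lie above the dotted 2-fold line and Col3a1 at -1.55 below it; scaling to the hybridisation spikes lifts every member.

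Ordered by log2 ratio, the members ran from Col1a1 (1.11) and Plod2 (1.05) through Col5a1, Serpinh1, Col1a2, Loxl2 and Col5a2 to Pcolce (-0.58) and Col3a1 (-1.55). Only 2 steps between neighbours in this order exceeded 0.65, or 2 SD of a difference. These were the step from Plod2 to Col5a1, at 0.70, and the step from Pcolce to Col3a1, at 0.97. The same 2 steps exceeded 2 SD taken at like signal. This spread holds no variation between cultures.

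The median log2 ratio was 0.09 over the 5 collagens and 0.11 over the 4 measured processing genes, against 0.0029 over all measured genes. Of the collagens 3 stood above 0 and 2 below, and of the processing genes 3 above and 1 below. The quartiles of all measured genes were -0.20 and 0.20, a range that held Serpinh1, Col1a2 and Loxl2. For the 5 members with 2 probe sets above the floor, these differed by 0.23 to 0.34 in log2 ratio, and in 4 of them both probe sets had the same sign.

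**Figure D3:**
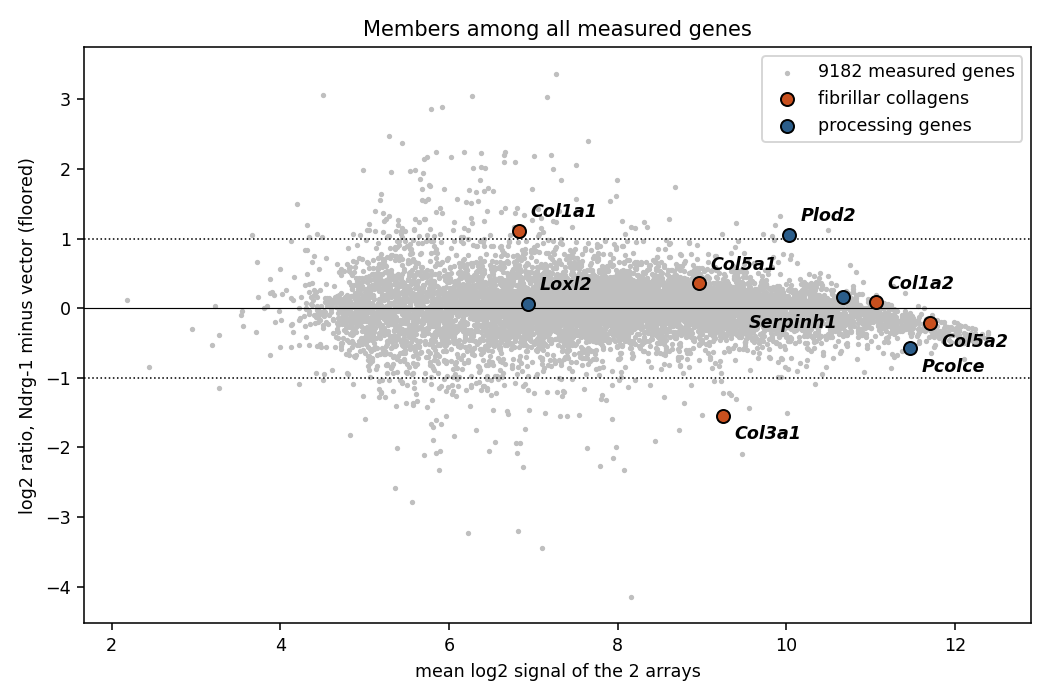
Log2 ratio (Ndrg-1 minus vector, signals floored) against mean log2 signal for the 9182 measured genes (grey), with collagens in orange and processing genes in blue. Col1a1 and Plod2 lie above the dotted 2-fold line, Col3a1 lies below the cloud of genes at its signal, and the cloud bends below 0 at the highest signals, where Col5a2 and Pcolce lie.

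The other genes of the collagen pathway were taken from 7 lists written for this description. The other fibrillar collagen genes, found mainly in cartilage and other specialised tissues, were mostly dim: 5 of 6 were under the floor in both arrays. Col11a1, a minor fibrillar chain, was the exception at 828 against 820, a log2 ratio of 0.0088 that turned to -0.21 with scaling to the poly-A spikes. Its second measured probe set stood at 0.35.

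Of the 20 measured genes for modification, folding and export of procollagen, 1 passed 2-fold upward and 1 downward, with a median log2 ratio of -0.07. Creb3l1, a membrane-bound transcription factor known to activate Col1a1 in bone cells, gave 118 against 39.7, 2.95-fold higher. Its vector signal lay near the floor of 31.0. Creb3l1 stayed at least 2-fold higher in the 9 alternatives that measured it, and was under the floor when that was set at the 75th percentile. Rcn3, a calcium-binding protein of the endoplasmic reticulum needed for collagen production, gave 98.4 against 288, 2.94-fold lower. It stayed 2-fold lower in 9 of the 10 alternatives. With the floor at the 75th percentile it stood at -0.75 or lower, the Ndrg-1 signal lying under that floor. Creb3l1 and Rcn3 each rest on 1 probe set.

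The hydroxylase genes are named here after their values were seen. P4ha1, which carries the active site of prolyl 4-hydroxylase, gave 1344 against 821, a log2 ratio of 0.71. P4ha2, an alternative catalytic subunit, stood at 0.45, with a second probe set at 0.60. P4ha3, the remaining catalytic subunit, read 4.01 against 33.3, at -0.10 or lower since the Ndrg-1 signal was under the floor. It stood at -2.12 with the floor at the 25th percentile and -1.30 with a pseudocount of 16. P4hb, the shared beta subunit, stood at -0.15, and turned to 0.07 with quantile normalization and with the lowess trend removed. The lysyl hydroxylases Plod1 and Plod3 stood at -0.26 and -0.34. These and P4hb turned above 0 with scaling to the hybridisation spikes. With the floor as reported none of P4ha1, P4ha2, P4ha3, P4hb, Plod1 and Plod3 reached 2-fold, though P4ha1 stood at 1.25 with scaling to the hybridisation spikes. P4ha1, P4ha2 and Plod2 stayed above 0 under every setting tried.

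Of 6 genes on the array for propeptide cleavage and cross-linking, 3 were measured, none was 2-fold higher and 1 was 2-fold lower. Tgm2, a transglutaminase that cross-links matrix proteins, gave 109 against 246, 2.27-fold lower. The other Tgm2 probe set fell to the floor with Ndrg-1, at -0.69 or lower. Tgm2 stayed 2-fold lower in 7 of the 10 alternatives. It stood at -0.64 with scaling to the hybridisation spikes and -0.93 with the median over probe sets. With the floor at the 75th percentile it stood at -0.52 or lower. Loxl3, a relative of Loxl2 named after its value was seen, gave 2015 against 3213, a log2 ratio of -0.68. Bmp1, the protease that Pcolce enhances, stood at -0.17, its second probe set at 0.26.

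Of the 10 measured genes of fibril-associated collagens, small proteoglycans and matricellular proteins, 9 were below 0, the median log2 ratio was -0.46, and none reached 2-fold. With the lowess trend removed 9 were still below 0, and the median was -0.35. With scaling to the hybridisation spikes 8 of 12 were above 0, with a median of 0.08 beside 0.53 over all genes. The lowest was Col16a1, a fibril-associated collagen, at 117 against 195 (-0.75). The highest was Sparc, a collagen-binding glycoprotein, at 0.07, turning to the other side with scaling to the poly-A spikes. The chains of type VI collagen, which forms beaded filaments beside the fibrils, were named after their values were seen: Col6a1 stood at -0.62, Col6a2 at -0.74 and Col6a3 at -0.53, the last turning to 0.01 with scaling to the hybridisation spikes. With the lowess trend removed Col6a1 stood at -0.41, Col6a2 at -0.60 and Col6a3 at -0.38. Second probe sets gave -0.78 for Col6a2 and -1.04 for Col6a3.

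None of the 5 measured collagen receptor genes, the 6 measured genes of collagen degradation or the 20 measured regulators of collagen transcription reached 2-fold as reported. With scaling to the hybridisation spikes 4 regulators did, all upward: Tgfb2, Skil, Tgfb1 at 1.21 and Smad7 at 1.27. That scaling lifted all genes, and 7.88% of those measured passed 2-fold upward and 0.46% downward. The collagenase-activating protease gene Mmp3 (51.1 against 18.2) and the integrin gene Itga1 (17.9 against 42.4) were each under the floor in 1 array, so their ratios of at least 0.72 and of -0.45 or lower are bounds. With the floor at the 25th percentile Mmp3 stood at 1.48 and Itga1 at -1.25. Among receptors, Cd44 was the highest at 0.17 and the collagen-binding kinase Ddr2 the lowest above the floor in both arrays at -0.22. Each of these turned to the other sign under 1 spike scaling. In degradation the lysosomal protease genes Ctsb and Ctsl stood at -0.13 and -0.43, both turning above 0 with scaling to the hybridisation spikes, and the second Ctsl probe set at -0.92. Of the regulators 13 were above 0 and 7 below, with a median of 0.15; with scaling to the poly-A spikes 7 were above and 13 below, with a median of -0.06 beside -0.21 over all genes. Tgfb2, a growth factor that raises collagen transcription, was the highest at 93.2 against 47.8, a log2 ratio of 0.96, while its other probe set stood at 0.34 or higher, the vector signal lying under the floor. Smad3, which carries that signal to collagen genes, was the lowest at -0.49, turning to 0.06 with scaling to the hybridisation spikes.

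**Figure D4:**
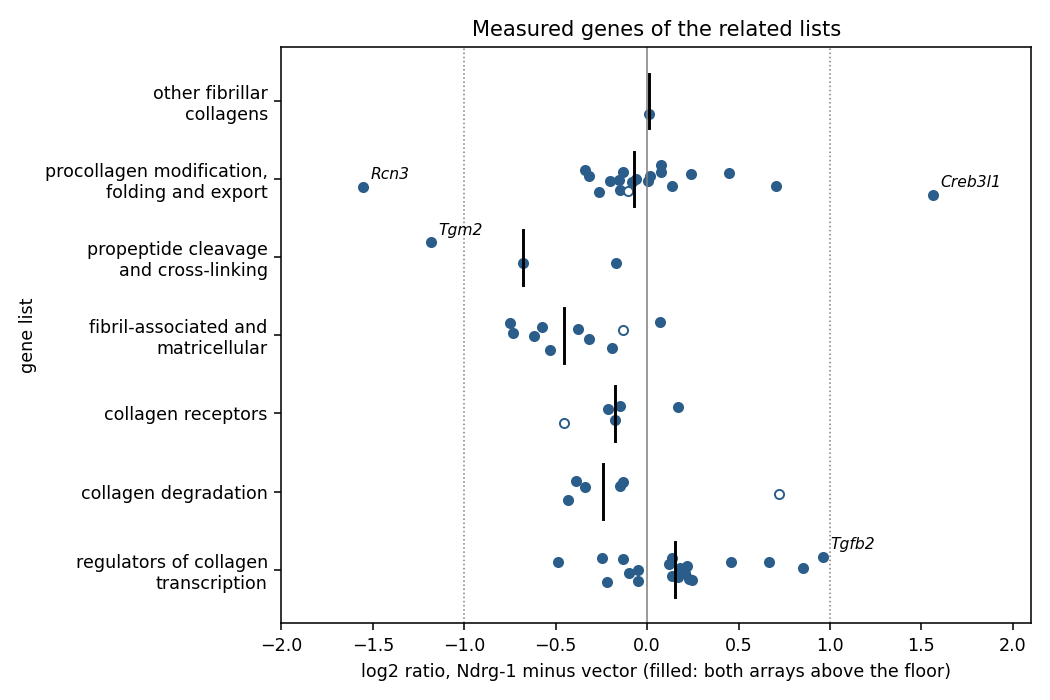
Log2 ratio (Ndrg-1 minus vector) of every gene above the floor in at least 1 array in the 7 related lists. Filled points are above the floor in both arrays, open points in 1, black bars are list medians and dotted lines mark 2-fold; Creb3l1 lies beyond the upper line and Rcn3 and Tgm2 beyond the lower.

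The genes beside the collagens on the chromosome were read from the RefSeq order of protein-coding genes. Col3a1 and Col5a2 are direct neighbours, yet their log2 ratios were -1.55 and -0.22, a difference of 1.33. The measured genes on the outer sides of this pair, Gulp1 and Wdr75, stood at -0.11 and 0.08. Col1a2 lies between Bet1 at -0.03 and Casd1, a sialic acid acetyltransferase gene at 258 with Ndrg-1 and 23.2, under the floor, with the empty vector. Casd1 was therefore at least 8.31-fold higher, a bound of 0.59 in log2 ratio with the floor at the 75th percentile, while Col1a2 stood at 0.09. The nearest measured genes to Col1a1 were Xylt2 at -0.10 and Sgca, at the floor with Ndrg-1, at -0.36 or below. Those to Col5a1 were Wdr5 at 0.04 and Olfm1 at -0.73.

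Both arrays had similar signals, with medians of 31.1 and 31.2. Of the probe sets annotated to Ndrg1, the brighter gave 1353 against 1062 and the dimmer 154 against 181. Neither was 2-fold higher in the array labelled Ndrg-1. The species and extent of the insert are unknown here. Whether these probe sets detect its transcript was not tested. The hybridisation spikes, bacterial transcripts added before hybridisation, had a median log2 ratio of -0.54, and the poly-A spikes, added to the RNA before labelling, of 0.22. Of 9 epithelial markers 8 were under the floor in both arrays, Cdh1, Epcam and Krt18 among them, and so were 4 of the 5 prostate markers on the array. The 13 fibroblast and smooth muscle markers had signals summing to 10986 (Ndrg-1) and 13409 (vector). Of these markers 6 were measured, none 2-fold different. Among them were Thy1 at 2141 against 1384, Vim at 4344 against 5798, S100a4 at 4156 against 5873 and Acta2 at 208 in both, while Pdgfra, Pdgfrb, Dcn, Lum, Fap, Tagln and Cnn1 were under the floor in both. The 6 endothelial markers on the array were all under it, and of the 7 leukocyte markers 3 were above it in at least 1 array: Cd68 at 206 against 114, Cd14 at 210 against 308 and Csf1r at 15.7 against 33.3. The leukocyte marker Ptprc read 2.72 and 3.25. Their part in the collagen ratios was not tested.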

How the data were processed

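RNA from 2 clones of AT6.1 cells was hybridised to 1 array each. The authors deposited 1 intensity (linear probe set signal) per probe set and array, for which the submitters' processing notes name GCOS 1.3. How probes were summarised, which were called present and the scaling target: not given in the sources used here. With 2% trimmed at each end, the mean signal was 150.0 in both columns. The number of arrays limits the precision.

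Of 31099 probe sets, 57 were controls, 20826 carried 1 gene symbol, 436 several and 9780 none. Symbols were updated by gene ID through RefSeq GRCr8 (20758 matched). The vector array was rescaled by 0.0048 (log2) to bring the brighter probe sets (mean signal above the median) to a median log2 ratio of 0. Values below the floor were raised to it, log2 was taken, and a gene was represented by its brightest probe set. A difference counted from 2-fold, and no test was run. The procedure was tested on simulated data, in which changed genes were brighter than the median and changed by more than 2-fold. Noise was the same at every signal there, so calls near 2-fold were not checked.

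The members and lists were chosen with earlier results of these data known. Named genes are all members, plus from each list every gene at least 2-fold different or, where fewer than 2 were, the highest and lowest of those measured on both arrays, plus the nearest measured neighbours of each collagen gene. Other genes of these lists were named after their values were seen, among them Mmp3, Itga1, Tgfb1, Skil, Smad7 and P4ha1 with its printed promoter. Alternatives were 5 scalings, 2 floors, a pseudocount of 16, the median over probe sets, and leaving out _x_at and _s_at probe sets. Software was Python 3.11.15 with pandas 2.3.3, numpy 2.4.6 and, for lowess, statsmodels 0.14.6.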

Additional observations from a re-analysis of the deposited data

How the results depend on the processing

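Scaling to the hybridisation spikes moved the median of all genes by 0.52 on the log2 scale and scaling to the poly-A spikes by -0.21. The number of members at least 2-fold higher, 2 as reported, was 0 with scaling to the poly-A spikes, and 1 with the floor at the 75th percentile, where Col1a1 was under the floor, 1 with a pseudocount of 16 and 1 with the median over probe sets, where Col1a1 stood at 0.98. Scaling to the hybridisation spikes placed the median of the collagens at 0.63 and that of the processing genes at 0.65. With scaling to the poly-A spikes these medians were -0.13 and -0.11, and the collagen median was -0.06 with the floor at the 75th percentile. Across all genes measured, the hybridisation spikes gave 732 higher and 43 lower, the poly-A spikes 101 and 240, the floor at the 25th percentile 444 and 463, and the floor at the 75th percentile 23 and 34. The count of members at least 2-fold lower, 1, held in all 10 alternatives. The difference between Col1a1 and Col3a1 could not be computed with the floor at the 75th percentile. Col3a1, Plod2 and Pcolce each rest on a single probe set.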
